A study of Arabidopsis thaliana with 12 samples.

Results

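Roots of Arabidopsis thaliana seedlings exposed to arsenate for 24 h were compared with mock roots of the same time. Gene expression was measured as FPKM, fragments scaled to the length of the transcript and the size of the library, in 2 As(V) and 2 mock libraries. The genes described are those with at least 1 FPKM in at least 2 of these 4 libraries, which were 19604 of the 33557 genes in the table (58.4%). Of these genes, 17510 reached 1 FPKM in all 4 libraries. Another 474 did so in both As(V) libraries and no mock library, 758 in both mock libraries and no As(V) library, and 862 in another mix. Genes that reached 1 FPKM in only 1 group had to differ, so their values are descriptions, given without an adjusted p. Where tested, such genes remain in the counts of calls and of gene lists, which are to that extent descriptions too. All seedlings were of the Col-0 ecotype with no transgene named. They grew for 7 days on Johnson's medium with 1 mM phosphate, then for 2 days on plates of the same medium without phosphate (J-P), and were then moved to liquid J-P, with 30 µM As(V) in the treated group. The mock roots were thus also kept without phosphate, and each library held the RNA of roots from 60 seedlings. The labels do not say whether replicates came from separate cultures, so p-values measure only the spread between these libraries. The study also sampled 1.5 h and 6 h of exposure in the same way, with 2 libraries per group and separate mock libraries at each time.

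Arsenate is a chemical analogue of phosphate and enters root cells through phosphate transporters. Inside the cell it is reduced to arsenite, which binds thiols, and plants hold it by joining it to phytochelatins, short peptides made from glutathione, and storing the complexes in the vacuole. Low phosphate itself starts a large transcription program under the factor PHR1, which raises transporters, phosphatases and enzymes that replace phospholipids by galactolipids and sulfolipids. Arsenate is known to repress parts of that program, and arsenite is known to misfold proteins, which calls on heat shock proteins and the proteasome.

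The 24 h libraries held 16.1 and 15.5 M estimated reads in genes in mock and 15.6 and 13.3 M under As(V), so that 1 read on a 1500-base transcript was worth 0.0454 to 0.0561 FPKM. The first and second mock libraries of 24 h stood further apart than those of the other groups, with a Pearson r across genes of 0.9864 against 0.9912 for the As(V) pair. Hypoxia genes, camalexin genes and small heat shock proteins were higher in the second. The counts of these lists, and of some others, are given with and without each mock library. The summed level of 8 root tissue markers was 4664 to 5152 FPKM in mock and 703 to 796 FPKM under As(V), with 1 marker called higher and 6 lower. Most of that sum was PYK10, a beta-glucosidase of root ER bodies. The sum of 10 shoot markers was 193 to 197 FPKM in mock and 86 to 93 FPKM under As(V), and no marker was at 0 in a group; the part of tissue makeup in the results was not tested. In bulk roots, fewer cells of a type and less RNA per cell cannot be told apart.

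Arsenate at 24 h was accompanied by a change in most of the expressed genes. The test was limma on log2(FPKM + 1) with precision weights, fitted to 19787 genes over all 12 libraries, and a gene is called when its adjusted p (Benjamini-Hochberg) is under 0.05. It called 13019 genes, 65.8% of those tested, of which 5819 were higher (29.4%) and 7200 lower (36.4%). Among the described genes 19210 were tested, and 5814 were called higher (30.3%) and 7191 lower (37.4%), 67.7% in all. The As(V) and mock libraries did not overlap in 16355 of all tested genes (82.7%). At an unadjusted p under 0.05 there were 13589 genes. Of the described genes called, 1462 were higher and 2896 lower by at least 1 on the log2 scale, 313 and 749 by at least 2, and 56 and 47 by at least 4. The median change over all genes tested was -0.06 and the median SE 0.12; scaling by estimated reads in genes in place of the deposited FPKM moved the median to 0.04 and the share of calls that were higher from 44.7% to 52.4%. Each change below is As(V) against mock on the log2(FPKM + 1) scale with its SE. It understates the change of genes near 1 FPKM. Where an adjusted p follows, it is limma's, and none is given for genes that reached 1 FPKM in only 1 group. A gene said to rise or fall is thus higher or lower than mock of the same time. The mock level of some genes itself moved between times. Counts for a gene list are over its described and tested genes.

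**Figure D1:**
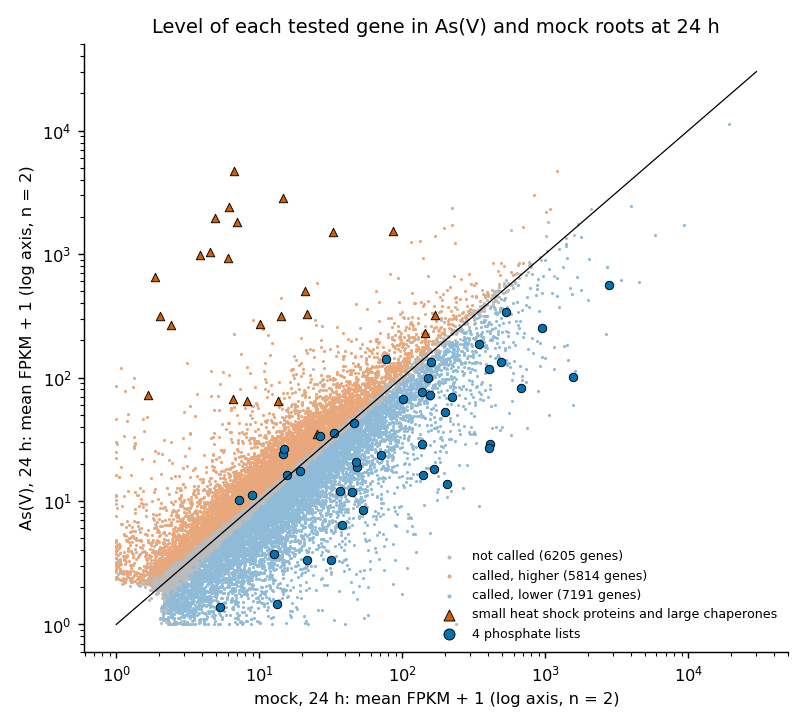
Mean level in the 2 As(V) libraries (y axis, FPKM + 1) against the mean in the 2 mock libraries (x axis, FPKM + 1), both log scaled, for the described genes that were tested; colour marks genes called higher or lower, triangles the heat shock chaperones and circles the phosphate lists. The chaperones lie above the diagonal, while most phosphate genes lie below it.

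The largest increases were in heat shock proteins. All 13 small heat shock proteins, chaperones that hold unfolding proteins, rose, with a median change of 7.63 and a range of 2.98 to 9.49. The 10 highest changes by the naming rule were 9 small heat shock proteins and the Hsp70b gene. Apart from 10 fixed genes, the rule takes only called genes whose As(V) and mock libraries do not overlap. Such a lack of overlap held in 82.7% of all tested genes and is no result for the genes so named. HSP18.2 (chr5:24062323-24063300, plus strand), a cytosolic small heat shock protein, had 3.93 and 7.43 FPKM in mock and 3786 and 5634 FPKM under As(V), a change of 9.49 ± 0.44, adjusted p = 7e-08. HSP17.4 had 2.30 and 7.99 FPKM in mock and 2029.8 and 2779 FPKM under As(V) (8.78 ± 0.51, adjusted p = 3.1e-07). AT1G53540, of the same family, had 1.85 and 5.94 FPKM in mock and 1504 and 2401 FPKM under As(V) (8.75 ± 0.63, adjusted p = 1.5e-06). In each, the second mock library was the higher of the mock pair, by 1.06 on the log2 scale in the median over the list, and both As(V) libraries lay far above both. The list kept 13 calls without either mock library, with medians of 8.11 without the second and 7.24 without the first. HSP22.0, which is directed to the ER, went from 0.254 and 1.51 to 526 and 769 FPKM (8.50 ± 0.81, adjusted p = 7.2e-06), and HSP23.6-MITO, of mitochondria, from 0.362 and 2.46 to 212 and 316 FPKM (6.91 ± 0.82, adjusted p = 4.5e-05). The smallest rise of the list was in AT5G37670, from 7.20 and 7.12 to 62.4 and 64.4 FPKM.

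The larger chaperones rose as well, 11 of 11 at a median of 3.92. Hsp70b (chr1:5501966-5504535, minus strand), a stress-inducible HSP70, had 3.65 and 3.44 FPKM in mock and 823 and 1239 FPKM under As(V) (7.80 ± 0.27, adjusted p = 1e-08), and both As(V) libraries lay far above both mock libraries. HSP90.1, the stress-inducible HSP90, had 27.6 and 35.5 FPKM in mock and 1273 and 1716 FPKM under As(V) (5.52 ± 0.18, adjusted p = 9.3e-09). HSP101, a disaggregase that pulls proteins out of aggregates, had 7.42 and 10.8 FPKM in mock and 212 and 328 FPKM under As(V) (4.74 ± 0.26, adjusted p = 3.5e-07). The changes of HSP90.2, HSP90.3 and HSP90.4, closely related members expressed without stress, were 0.93 ± 0.08, 0.67 ± 0.09 and 0.47 ± 0.07; 24.8% of the 50-base windows of HSP90.3 occur elsewhere in the genome, so reads between these copies are uncertain. Of 14 genes of heat shock factors, with MBF1C counted among them, 10 rose and 1 fell (2 without the first mock library). HSFA2, a factor that maintains the heat response, had 1.59 and 3.72 FPKM in mock and 60.4 and 85.9 FPKM under As(V) (4.39 ± 0.30, adjusted p = 9.2e-07), and the coactivator MBF1C had 54.7 and 79.8 FPKM in mock and 356 and 453 FPKM under As(V) (2.59 ± 0.16, adjusted p = 2.5e-07). HSFA7A, HSFA6B and HSFA4A were not called, and HSFC1 fell by 1.20; 96.7% of its exon bases lie under an antisense gene.

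Heat shock factors bind repeats of GAA and its complement in promoters. The 300 bases before the annotated start of each gene were searched on both strands for GAANNTTCNNGAA, 3 such units in alternating directions. The motif was in 0.5% of the windows of 32809 nuclear genes and in 3 of the 24 chaperone genes (12.5%), namely HSP17.4, AT1G53540 and HSP90.1. The windows of HSP17.4 and AT1G53540 are shown because both had the highest changes among the 3 genes with a match. HSP18.2, with the highest change of the chaperones (9.49), has no match. The matches of HSP17.4 start 99 and 18 bases before the annotated start, and that of AT1G53540 53 bases before it. Both windows are read in the direction of the gene from RefSeq's TAIR10.1 assembly, with the motif in capitals. A match is a description of the letters, not of a bound site.
HSP17.4 (chr3:16984868-16985167, minus strand): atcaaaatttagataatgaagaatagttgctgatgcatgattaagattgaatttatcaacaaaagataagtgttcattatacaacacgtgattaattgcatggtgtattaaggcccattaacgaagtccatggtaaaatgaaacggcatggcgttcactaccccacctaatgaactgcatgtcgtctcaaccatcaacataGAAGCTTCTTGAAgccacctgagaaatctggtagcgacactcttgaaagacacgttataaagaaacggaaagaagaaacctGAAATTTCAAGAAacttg
AT1G53540 (chr1:19979999-19980298, plus strand): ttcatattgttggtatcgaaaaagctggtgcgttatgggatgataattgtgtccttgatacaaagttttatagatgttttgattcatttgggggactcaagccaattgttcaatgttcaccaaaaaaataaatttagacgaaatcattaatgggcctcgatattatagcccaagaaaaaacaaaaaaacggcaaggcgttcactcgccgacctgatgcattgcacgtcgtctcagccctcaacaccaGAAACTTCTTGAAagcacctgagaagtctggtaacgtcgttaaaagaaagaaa

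The proteasome, which degrades tagged and damaged proteins, moved with the chaperones in direction. Of 38 proteasome subunit genes, 36 rose and 0 fell, at a median of 0.95. RPT3, an ATPase of the regulatory particle, had 154 and 145 FPKM in mock and 583 and 748 FPKM under As(V) (2.14 ± 0.09, adjusted p = 1.7e-08). RPT2a, another ATPase of that particle, had 122 and 116 FPKM in mock and 372 and 423 FPKM under As(V) (1.73 ± 0.07, adjusted p = 8.9e-09). The unfolded protein response of the ER did not move as a whole: 5 of 15 genes rose and 10 fell, or 8 with library totals, at a median of -0.41. TIN1, a marker of tunicamycin stress, had 5.44 and 6.48 FPKM in mock and 43.6 and 54.1 FPKM under As(V) (2.84 ± 0.13, adjusted p = 2.1e-08). ERDJ3A, an ER co-chaperone, had 7.60 and 7.53 FPKM in mock and 25.4 and 37.5 FPKM under As(V) (1.89 ± 0.18, adjusted p = 4.7e-06). BIP3, an ER HSP70 that is nearly silent without stress, went from 0.201 and 0.315 to 4.20 and 4.10 FPKM (2.04 ± 0.23). BIP3 reached 1 FPKM only under As(V), so these values are a description. The abundant ER folding genes fell instead: CRT1b, a calreticulin, had 182 and 143 FPKM in mock and 89.2 and 79.8 FPKM under As(V) (-0.93 ± 0.10, adjusted p = 7.6e-06). CNX1, a calnexin, had 269 and 228 FPKM in mock and 140.3 and 139 FPKM under As(V) (-0.82 ± 0.07, adjusted p = 1.4e-06).

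**Figure D2:**
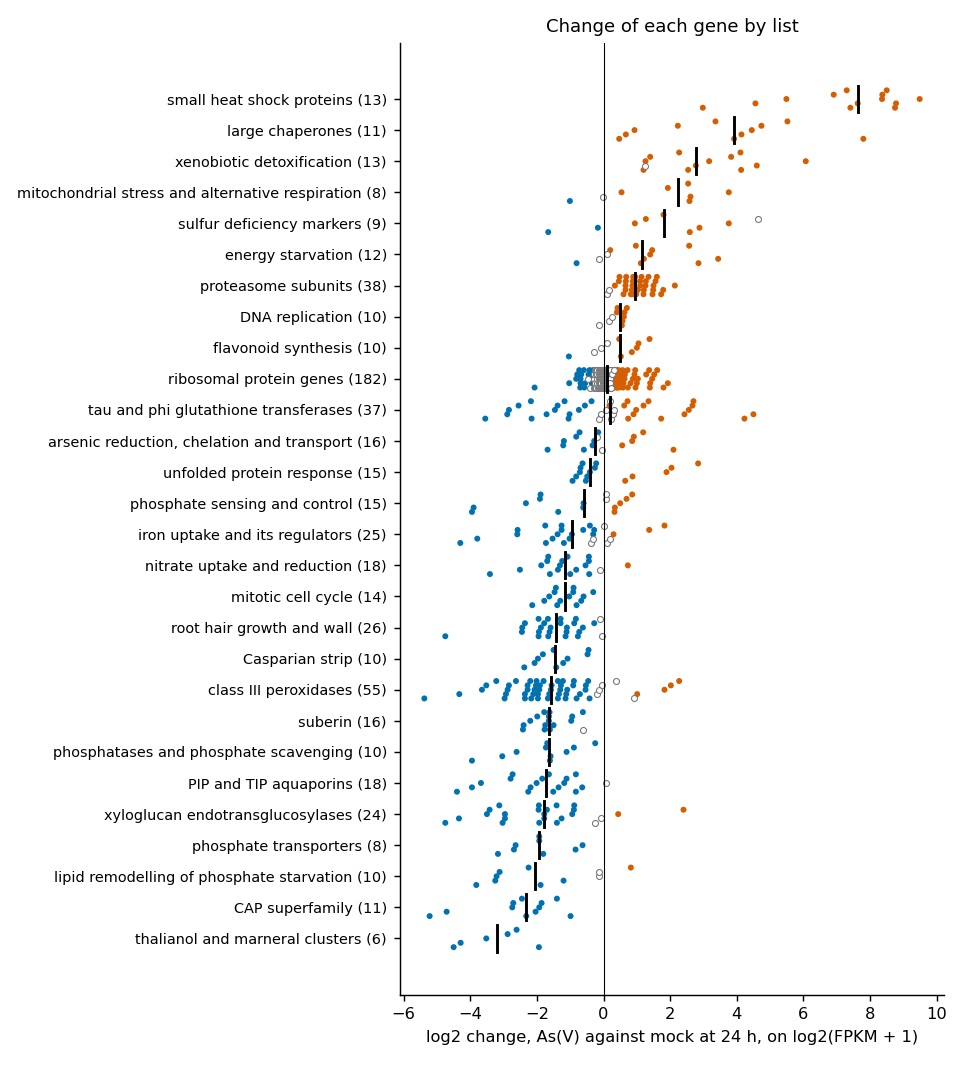
Change at 24 h of As(V) against mock (x axis, log2 of FPKM + 1) for each tested gene of 28 gene lists (rows); a point is a gene, filled where called and open where not, and the bar is the list's median. Small heat shock proteins lie between 2.98 and 9.49 and phosphate transporters between -3.17 and -0.63.

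Genes of the phosphate starvation program were lower in arsenate-treated than in mock roots, although neither group was given phosphate. All 8 tested genes of the phosphate transporter list fell, at a median of -1.93. The median was -2.07 without the second mock library and -1.79 without the first. The 8 genes include PHF1 (-0.84), which is not itself a transporter. The most abundant, PHT1;1 (chr5:17399769-17402158, minus strand), the main uptake transporter, had 533 and 524 FPKM in mock and 348 and 333 FPKM under As(V) (-0.63 ± 0.09, adjusted p = 7.9e-05); 42.5% of its 50-base windows occur elsewhere in the genome, so its reads cannot be fully told from those of its neighbour PHT1;2. PHT1;4, a transporter of the root epidermis, had 422 and 386 FPKM in mock and 132 and 99.1 FPKM under As(V) (-1.81 ± 0.13, adjusted p = 5.9e-07). PHT1;8 had 12.2 and 12.5 FPKM in mock and 0.588 and 0.363 FPKM under As(V) (-3.17 ± 0.27). PHT1;8 reached 1 FPKM only in mock, so these values are a description. PHT1;9, its close relative, had 20.8 and 20.03 FPKM in mock and 2.67 and 1.93 FPKM under As(V) (-2.69 ± 0.12, adjusted p = 1.8e-08). The As(V) and mock libraries did not overlap for any of the 4, as in 82.7% of all tested genes. The abundant PHT1;1 had the smallest change of the list. PHT1;8 had mock means of 2.96, 2.39 and 12.3 FPKM at 1.5, 6 and 24 h. Under As(V) its means were 1.92, 0.949 and 0.475 FPKM at the same times. PHT1;5 reached 1 FPKM in 1 library and is outside the described genes.

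Among 15 tested genes of phosphate sensing and control, 8 fell and 5 rose, at a median of -0.60. IPS1 (chr3:3050989-3051530, plus strand), a noncoding RNA that holds microRNA miR399 away from its target PHO2, had 1510.2 and 1608 FPKM in mock and 106 and 94.0 FPKM under As(V) (-3.95 ± 0.11, adjusted p = 2.2e-09). AT4, a noncoding RNA of the same kind, had 2614 and 3011 FPKM in mock and 534 and 585 FPKM under As(V) (-2.33 ± 0.10, adjusted p = 1.6e-08). PHO2, a ubiquitin-conjugating enzyme that lowers phosphate transporters, had 51.1 and 44.1 FPKM in mock and 18.1 and 17.64 FPKM under As(V) (-1.36 ± 0.13, adjusted p = 5.6e-06). SPX domain proteins sense phosphate status and bind PHR1. SPX3 (chr2:18606410-18607853, plus strand) had 211 and 197 FPKM in mock and 14.6 and 10.7 FPKM under As(V) (-3.90 ± 0.11, adjusted p = 2.2e-09). SPX1 had 939 and 943 FPKM in mock and 271 and 229.8 FPKM under As(V) (-1.91 ± 0.09, adjusted p = 2.8e-08), while SPX4 rose from 6.13 and 6.23 to 9.31 and 9.02 FPKM (0.50 ± 0.11, adjusted p = 0.0015). PHR1 itself rose, from 23.0 and 28.0 to 31.6 and 33.1 FPKM (0.34 ± 0.08, adjusted p = 0.0037), and its relative PHL1 was not called (0.06 ± 0.08, adjusted p = 0.53). STOP1, a zinc finger factor of the root tip response to aluminium and low phosphate, had 69.7 and 82.9 FPKM in mock and 124 and 156 FPKM under As(V) (0.86 ± 0.11, adjusted p = 2.9e-05). ALMT1, the malate channel that STOP1 controls, was below 1 FPKM in all 4 libraries.

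The pairing of miR399 with IPS1 is shown because IPS1 was among the largest changes of the phosphate genes. The mature miR399b of RefSeq has its seed, bases 2 to 8, in capitals; the IPS1 site pairs with 18 of its 21 bases around a loop of 3 bases, in capitals, that is known to stop cleavage. Both are read 5′ to 3′ in TAIR10.1.
ath-miR399b (chr1:23345387-23345407, minus strand): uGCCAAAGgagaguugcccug
IPS1 site (chr3:3051224-3051247, plus strand): uugggcaacuuCUAuccuuuggca

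Enzymes that replace phospholipids were among the lowest of the phosphate genes: 7 of 10 fell and 1 rose, at a median of -2.07. SQD2, which makes sulfolipid, had 419 and 398 FPKM in mock and 26.6 and 29.6 FPKM under As(V) (-3.82 ± 0.11, adjusted p = 2.2e-09). SQD1, which makes its sugar donor, had 137 and 137 FPKM in mock and 30.9 and 24.98 FPKM under As(V) (-2.25 ± 0.09, adjusted p = 8.7e-09). MGD2 and MGD3 are galactolipid synthases of the starved root. MGD2 had 31.5 and 29.7 FPKM in mock and 2.43 and 2.19 FPKM under As(V) (-3.25 ± 0.16, adjusted p = 3.3e-08). MGD3 had 170.0 and 163 FPKM in mock and 19.9 and 14.5 FPKM under As(V) (-3.21 ± 0.19, adjusted p = 2.7e-07). NPC4, a phospholipase C, had 145 and 134 FPKM in mock and 14.8 and 15.4 FPKM under As(V) (-3.12 ± 0.09, adjusted p = 2.2e-09). DGD1, which adds the outer sugar of digalactolipid, rose from 15 and 12.8 to 23.48 and 27.3 FPKM (0.82 ± 0.09, adjusted p = 1.4e-05), and DGD2 and PAH1 were not called. All 10 phosphatase and scavenging genes fell, at a median of -1.65, or 9 when libraries were scaled to an equal FPKM sum. PEPC1, a phosphatase of phosphocholine and phosphoethanolamine, had 421 and 392 FPKM in mock and 30.6 and 20.9 FPKM under As(V) (-3.95 ± 0.19, adjusted p = 1e-07). Its mock mean rose with time, with 24.1, 31.5 and 406 FPKM at 1.5, 6 and 24 h. Under As(V) the means were 25.5, 4.53 and 25.8 FPKM. PS2, of the same family, had 709 and 647 FPKM in mock and 88.0 and 74.7 FPKM under As(V) (-3.04 ± 0.11, adjusted p = 6.8e-09). PAP22, a purple acid phosphatase, had 39.1 and 35.1 FPKM in mock and 4.56 and 6.19 FPKM under As(V) (-2.61 ± 0.17, adjusted p = 2.3e-07). The naming rule took these 3 genes only from those without overlap between groups.

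PHR1 binds the P1BS element, GNATATNC, which reads the same on both strands. It was found in the 300 bases before the start of 6.3% of 32809 nuclear genes, 6.6% of 19137 described and tested genes, 12 of the 43 phosphate genes (27.9%) and, among those 43, 10 of the 33 called lower (30.3%), 1 of the 6 called higher (16.7%) and 1 of the 4 not called. With 6 and 4 genes in the smaller classes, these shares do not show whether the element goes with the fall. The windows of SPX3 and MGD2 are shown because these 2 genes had the largest falls among phosphate genes with a match, by 3.90 and 3.25 on the log2 scale. IPS1 (-3.95), PEPC1 (-3.95) and SQD2 (-3.82) have no match. The matches of SPX3 start 213 and 90 bases before the annotated start, and that of MGD2 14 bases before it. Capitals mark the element, and the assembly is TAIR10.1. A match is not a bound site.
SPX3 (chr2:18606110-18606409, plus strand): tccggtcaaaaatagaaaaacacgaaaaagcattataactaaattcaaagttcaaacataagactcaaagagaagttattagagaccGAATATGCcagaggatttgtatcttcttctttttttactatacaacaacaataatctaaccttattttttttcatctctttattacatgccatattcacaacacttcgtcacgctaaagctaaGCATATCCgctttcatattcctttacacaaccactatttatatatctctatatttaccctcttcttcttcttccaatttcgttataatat
MGD2 (chr5:6896163-6896462, plus strand): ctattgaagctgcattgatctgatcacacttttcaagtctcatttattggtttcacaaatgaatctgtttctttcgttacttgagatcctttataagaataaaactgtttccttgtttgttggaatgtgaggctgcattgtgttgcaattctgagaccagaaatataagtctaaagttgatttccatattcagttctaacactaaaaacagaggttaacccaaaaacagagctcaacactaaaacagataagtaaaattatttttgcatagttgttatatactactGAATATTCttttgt

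**Figure D3:**
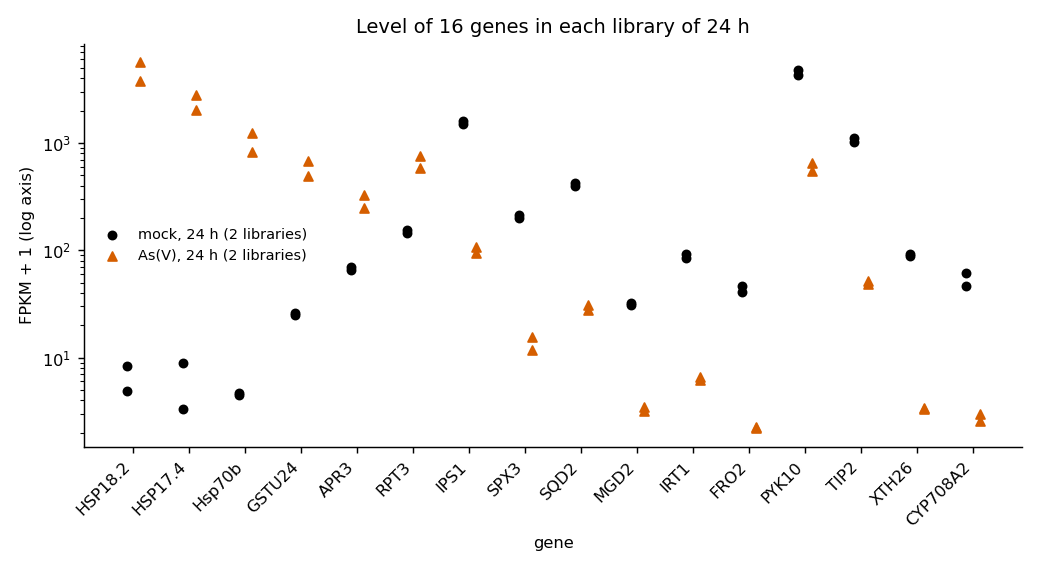
Level in each of the 4 libraries of 24 h (y axis, FPKM + 1, log scale) for 16 genes of the report, with mock and As(V) libraries in separate colours. HSP18.2 goes from 3.93 and 7.43 FPKM to 3786 and 5634 FPKM and IPS1 from 1510.2 and 1608 FPKM to 106 and 94.0 FPKM. The 16 genes were named by a rule that asks for no overlap between groups, so none overlaps by choice.

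The list of arsenic reduction, chelation and transport also counts ASK18 and the factors WRKY6 and WRKY45, which do not handle arsenic themselves. Of its 16 tested genes 5 rose and 9 fell, at a median of -0.25. Over all described genes 30.3% were called higher and 37.4% lower. AT2G21045, a rhodanese family gene known as HAC1, the main arsenate reductase of roots, had 216 and 229 FPKM in mock and 167 and 187 FPKM under As(V) (-0.33 ± 0.06, adjusted p = 0.00069). PCS1, the phytochelatin synthase, had 56.2 and 77.0 FPKM in mock and 26.4 and 30.5 FPKM under As(V) (-1.19 ± 0.13, adjusted p = 1.4e-05), and PCS2 was not called. GSH1 and GSH2 make glutathione. GSH1 had 110.4 and 113 FPKM in mock and 99.9 and 101 FPKM under As(V) (-0.16 ± 0.05, adjusted p = 0.015), a change whose sign turned to 0.02 when libraries were scaled to an equal FPKM sum, and GSH2 had 61.2 and 65.4 FPKM in mock and 43.3 and 40.4 FPKM under As(V) (-0.59 ± 0.08, adjusted p = 5.8e-05). Of the vacuolar transporters of phytochelatin complexes, ABCC2 rose (0.91 ± 0.08, adjusted p = 2.5e-06) and ABCC1 fell (-0.28 ± 0.06, adjusted p = 0.0022), while the related ABCC3 had 13.3 and 13.4 FPKM in mock and 55.3 and 65.9 FPKM under As(V) (2.1 ± 0.12, adjusted p = 1.1e-07). NIP1;1 and NIP1;2, aquaglyceroporins that pass arsenite, had 92.8 and 82.1 FPKM in mock and 24.4 and 29.4 FPKM under As(V) (-1.68 ± 0.10, adjusted p = 9.6e-08) and 13.9 and 13.1 FPKM in mock and 4.94 and 5.69 FPKM under As(V) (-1.21 ± 0.14, adjusted p = 1.5e-05). ASK18, a SKP1-like gene of arsenate signalling, had 9.70 and 9.92 FPKM in mock and 21.9 and 25.7 FPKM under As(V) (1.19 ± 0.12, adjusted p = 5.8e-06). WRKY6, a repressor of PHT1;1 under arsenate, had 29.9 and 42.4 FPKM in mock and 48.5 and 57.6 FPKM under As(V) (0.56 ± 0.14, adjusted p = 0.0052); without the second As(V) library its change was 0.44 and not called.

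Sulfate uptake and reduction feed cysteine and glutathione synthesis. Within sulfate assimilation and cysteine synthesis, 7 of 15 genes rose and 6 fell, at a median of 0.30. APR2 and APR3 reduce activated sulfate: APR2 had 51.1 and 41.7 FPKM in mock and 186 and 225 FPKM under As(V) (2.12 ± 0.10, adjusted p = 2.9e-08). APR3 had 69.5 and 65.0 FPKM in mock and 249 and 324 FPKM under As(V) (2.06 ± 0.11, adjusted p = 6.9e-08). The ATP sulfurylases, which activate sulfate, differed, as APS1 rose (1.22 ± 0.12, adjusted p = 4.6e-06) and APS4 fell (-1.70 ± 0.05, adjusted p = 3.5e-09). OASA1, the main cytosolic cysteine synthase, fell from 308 and 310.2 to 146 and 161 FPKM (-1.0 ± 0.06, adjusted p = 1.1e-07). Of 8 sulfate transporters 3 rose and 2 fell, beside 30.3% and 37.4% over all described genes. Their median was -0.07 and turned to 0.03 with library totals. SULTR1;2, a main root uptake transporter, had 37.7 and 37.5 FPKM in mock and 143 and 155 FPKM under As(V) (1.96 ± 0.12, adjusted p = 1.7e-07), and SULTR1;1 was not called. Of 9 genes known to rise when sulfur is short, 6 rose and 2 fell (1 with library totals), at a median of 1.8. LSU3 had 3.94 and 4.35 FPKM in mock and 59.2 and 81.3 FPKM under As(V) (3.76 ± 0.35, adjusted p = 3.4e-06). SHM7, a serine hydroxymethyltransferase, had 21.3 and 21.95 FPKM in mock and 132 and 209 FPKM under As(V) (2.88 ± 0.18, adjusted p = 3.3e-07). BGLU28, a glucosidase of that response, was at 0 and 0.0378 FPKM in mock and 15.2 and 40.2 FPKM under As(V). Its SE was too wide for a call (4.64 ± 2.76).

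Detoxification genes for foreign compounds were higher almost throughout: 12 of 13 rose, at a median of 2.77. UGT74E2, a glucosyltransferase, had 0 and 0.301 FPKM in mock and 67.1 and 85.5 FPKM under As(V) (6.07 ± 0.94). CYP81D11, a cytochrome P450, had 0.317 and 0.331 FPKM in mock and 24.9 and 39.2 FPKM under As(V) (4.60 ± 0.72). Both reached 1 FPKM only under As(V), so these values are descriptions. OPR1, an oxophytodienoate reductase relative, had 25.1 and 20.4 FPKM in mock and 126 and 203.7 FPKM under As(V) (2.77 ± 0.22, adjusted p = 2.9e-06). AKR4C9, the exception, was not called (1.24 ± 0.52, adjusted p = 0.056). The glutathione transferases, which join glutathione to such compounds, did not share a direction, with 15 of 37 higher and 15 lower and a median of 0.18. GSTU24 had 23.9 and 25.03 FPKM in mock and 491 and 672 FPKM under As(V) (4.50 ± 0.17, adjusted p = 9.2e-09). GSTU25 had 9.46 and 11.7 FPKM in mock and 179 and 259 FPKM under As(V) (4.23 ± 0.28, adjusted p = 5.1e-07). At the other end GSTF11 had 39.4 and 37.1 FPKM in mock and 2.48 and 2.204 FPKM under As(V) (-3.55 ± 0.22, adjusted p = 1.6e-07), although its exon bases lie wholly under an antisense gene, and GSTU20 had 126 and 112 FPKM in mock and 15.65 and 15.69 FPKM under As(V) (-2.84 ± 0.12, adjusted p = 1.3e-08).

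Genes of mitochondrial stress and alternative respiration rose in 6 of 8 cases and fell in 1, at a median of 2.23. AOX1A, the stress-inducible alternative oxidase, had 37.4 and 37.5 FPKM in mock and 208 and 253 FPKM under As(V) (2.58 ± 0.12, adjusted p = 2.6e-08). NAC13, a factor that controls it, had 7.10 and 8.17 FPKM in mock and 46.9 and 51.2 FPKM under As(V) (2.54 ± 0.09, adjusted p = 6.4e-09). Of 18 scavengers of reactive oxygen 8 were higher and 7 lower, at a median of 0.04, beside 30.3% and 37.4% over all described genes. APX2, a cytosolic ascorbate peroxidase of the heat response, had 0.147 and 0.254 FPKM in mock and 45.1 and 54.9 FPKM under As(V) (5.40 ± 0.24). APX2 reached 1 FPKM only under As(V), so these values are a description. GR1, a glutathione reductase, had 136 and 131 FPKM in mock and 383 and 428 FPKM under As(V) (1.59 ± 0.06, adjusted p = 1.1e-08). The abundant APX1 fell, with 1026 and 1100.4 FPKM in mock and 758 and 757 FPKM under As(V) (-0.49 ± 0.06, adjusted p = 1.6e-05), as did DHAR1, a dehydroascorbate reductase, with 323 and 287 FPKM in mock and 88.0 and 87.2 FPKM under As(V) (-1.79 ± 0.16, adjusted p = 3.8e-06). The NADPH oxidases, which make superoxide at the cell surface, fell in 5 of 7 genes, at a median of -1.15. RBOHB had 35.7 and 45.9 FPKM in mock and 6.07 and 5.52 FPKM under As(V) (-2.61 ± 0.15, adjusted p = 7.8e-08). RBOHD had 70.4 and 101 FPKM in mock and 37.0 and 37.7 FPKM under As(V) (-1.15 ± 0.15, adjusted p = 5e-05), while RBOHC, the oxidase of root hair growth, was not called (0.05 ± 0.06, adjusted p = 0.42). Genes that mark sugar and energy shortage rose in 9 of 12 cases and fell in 1, at a median of 1.16. Without the first mock library 6 rose and 2 fell, and without the second 7 rose and 1 fell. ASN1, an asparagine synthetase repressed by sugar, had 4.15 and 3.50 FPKM in mock and 26.8 and 28.6 FPKM under As(V) (2.57 ± 0.14, adjusted p = 6.8e-08). BZIP1 had 1.97 and 2.53 FPKM in mock and 35.0 and 33.3 FPKM under As(V) (3.44 ± 0.27, adjusted p = 9.5e-07).

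Most transcripts of iron uptake genes were lower at 24 h. Of 25 genes of iron uptake and its control, 17 fell (15 with library totals) and 3 rose, at a median of -0.95. IRT1 (chr4:10707344-10709015, plus strand), the ferrous iron transporter of the root surface, which also carries zinc, had 84.4 and 90.5 FPKM in mock and 5.22 and 5.64 FPKM under As(V) (-3.79 ± 0.29, adjusted p = 1.5e-06). FRO2, the ferric reductase that works beside it, had 40.2 and 45.3 FPKM in mock and 1.25 and 1.19 FPKM under As(V) (-4.30 ± 0.41, adjusted p = 7.4e-06). Nicotianamine binds metals for transport inside the plant, and its synthase gene NAS1 had 16.4 and 17.7 FPKM in mock and 1.98 and 2.02 FPKM under As(V) (-2.59 ± 0.16, adjusted p = 1.8e-07). FRU, the factor FIT that drives IRT1 and FRO2, fell less (-0.41 ± 0.14, adjusted p = 0.023). The genes that rose are regulators: BTS, an iron-binding ubiquitin ligase that restrains the response, had 14.3 and 16.9 FPKM in mock and 53.9 and 61.7 FPKM under As(V) (1.83 ± 0.09, adjusted p = 3.2e-08). BHLH39, a partner of FIT, had 15.1 and 15.8 FPKM in mock and 38.4 and 45.5 FPKM under As(V) (1.37 ± 0.10, adjusted p = 6.5e-07). PYE had 10.8 and 12.7 FPKM in mock and 13.9 and 15.6 FPKM under As(V) (0.30 ± 0.11, adjusted p = 0.028). Of 5 genes of coumarins, which mobilise iron, 1 rose (2 with library totals or without the first mock library) and 3 fell, at a median of -0.37; the exporter ABCG37 had 46.3 and 49.7 FPKM in mock and 109.5 and 136 FPKM under As(V) (1.33 ± 0.09, adjusted p = 2.3e-07). Ferritins, vacuolar iron transporters and metallothioneins had 2 higher and 7 lower of 12 and a median of -0.59, and MT2A, a metallothionein, stood apart with 55.1 and 56.3 FPKM in mock and 327 and 385 FPKM under As(V) (2.65 ± 0.11, adjusted p = 1.1e-08).

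Other nutrient and water transport genes were also mostly lower. Of 11 zinc transporters 9 fell (7 with library totals), at a median of -0.52; the call of the single riser, ZIP9 (0.40 ± 0.14), was lost without either mock library. ZIP3 had 51.1 and 44.4 FPKM in mock and 9.23 and 7.98 FPKM under As(V) (-2.34 ± 0.12, adjusted p = 5.3e-08). Nitrate and ammonium genes fell in 16 of 18 cases and rose in 1, at a median of -1.16. NIA1, a nitrate reductase, had 119 and 149 FPKM in mock and 24.0 and 21.1 FPKM under As(V) (-2.51 ± 0.11, adjusted p = 1.9e-08). HRS1, a factor that joins nitrate and phosphate signals in the root tip, had 91.7 and 97.1 FPKM in mock and 9.39 and 6.55 FPKM under As(V) (-3.41 ± 0.19, adjusted p = 6.7e-08). NRT2.1, the main high-affinity nitrate transporter, fell from 621 and 479 to 279 and 189 FPKM (-1.24 ± 0.23, adjusted p = 0.0012), and NRT1.8, which takes nitrate back from the xylem, rose from 10.4 and 6.90 to 14.4 and 15.2 FPKM (0.73 ± 0.18, adjusted p = 0.0047). Of 4 potassium transport genes 3 fell, at a median of -0.68. AKT1, the uptake channel, had 59.1 and 62.6 FPKM in mock and 35.7 and 35.5 FPKM under As(V) (-0.76 ± 0.09, adjusted p = 2.8e-05). Aquaporins of the plasma membrane and vacuole fell in 17 of 18 genes, at a median of -1.74. TIP2, a vacuolar aquaporin, had 1012 and 1101 FPKM in mock and 50.7 and 47.1 FPKM under As(V) (-4.4 ± 0.17, adjusted p = 1.9e-08). PIP2;4, of the plasma membrane, had 67.3 and 60.1 FPKM in mock and 3.20 and 3.18 FPKM under As(V) (-3.95 ± 0.22, adjusted p = 8e-08), and PIP2;5, the exception, was not called (0.07 ± 0.14, adjusted p = 0.68).

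GLABRA2 (GL2), the homeodomain factor named in the study's title, represses root hair fate in the non-hair cells of the root epidermis. GL2 (chr1:30036956-30041440, plus strand) had 5.85 and 6.45 FPKM in mock and 3.24 and 3.39 FPKM under As(V) (-0.73 ± 0.10, adjusted p = 9.1e-05), and both As(V) libraries were below both mock libraries. ANL2, a related homeodomain factor, had 7.14 and 7.03 FPKM in mock and 10.8 and 11.3 FPKM under As(V) (0.58 ± 0.09, adjusted p = 0.00012), with both As(V) libraries higher. Such a lack of overlap held in 82.7% of all tested genes and is not particular to GL2 or ANL2. Of 17 tested genes of epidermal patterning 4 rose and 7 fell, at a median of -0.30, beside 30.3% and 37.4% over all described genes. WER, the MYB factor upstream of GL2, and its partner genes TTG1 and EGL3 were not called (-0.30 ± 0.15, -0.19 ± 0.11 and -0.19 ± 0.16), while GL3 fell (-0.51 ± 0.16, adjusted p = 0.017). MYC1, a further bHLH partner, had 11.6 and 9.64 FPKM in mock and 2.24 and 2.09 FPKM under As(V) (-1.87 ± 0.17, adjusted p = 2.6e-06). Of the small MYB proteins that move between cells, ETC3 had 38.2 and 32.1 FPKM in mock and 4.13 and 6.72 FPKM under As(V) (-2.55 ± 0.27, adjusted p = 1e-05). CPC had 12.4 and 10.6 FPKM in mock and 6.81 and 7.08 FPKM under As(V) (-0.66 ± 0.23, adjusted p = 0.027), a call lost in some alternatives; ETC1 was not called. HDG11, HDG12 and TTG2 rose from levels near 1 FPKM.

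Genes of hair growth fell as a group. Of 26 genes of root hair growth and wall 24 fell (23 with library totals) and 0 rose, at a median of -1.44. XTH26, a wall-loosening enzyme of hairs, had 90.6 and 86.8 FPKM in mock and 2.31 and 2.36 FPKM under As(V) (-4.75 ± 0.31, adjusted p = 2.4e-07). RHS13 had 573 and 619 FPKM in mock and 119 and 97.4 FPKM under As(V) (-2.45 ± 0.08, adjusted p = 4.8e-09), and the expansin EXPA7, a target of hair regulators, 130.3 and 149 FPKM in mock and 78.8 and 77.2 FPKM under As(V) (-0.83 ± 0.18, adjusted p = 0.0028). CSLD3, a cellulose-synthase-like enzyme of the hair tip, and ROPGEF3 were not called (-0.05 ± 0.06 and -0.11 ± 0.13). Of 7 hair regulators 5 fell and 1 rose, at a median of -0.62. RSL2, a bHLH factor of hair growth, had 27.9 and 29.8 FPKM in mock and 0.926 and 1.27 FPKM under As(V) (-3.85 ± 0.23, adjusted p = 1.1e-07), its partner in that role RSL4 was not called (-0.29 ± 0.15), and LRL1, also a bHLH factor, had 34.0 and 38.5 FPKM in mock and 83.1 and 95.02 FPKM under As(V) (1.27 ± 0.11, adjusted p = 2.4e-06).

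Barrier genes of the endodermis and genes of wood-like walls were lower as well. All 10 Casparian strip genes fell (9 with library totals), at a median of -1.46. CASP1, which builds the strip's membrane domain, had 174 and 214 FPKM in mock and 74.8 and 68.4 FPKM under As(V) (-1.42 ± 0.11, adjusted p = 7.3e-07). CASP4 had 52.3 and 49.9 FPKM in mock and 8.86 and 9.16 FPKM under As(V) (-2.38 ± 0.22, adjusted p = 3.1e-06). PER64, the peroxidase that lignifies it, had 69.2 and 79.4 FPKM in mock and 17.38 and 16.2 FPKM under As(V) (-2.07 ± 0.09, adjusted p = 1.2e-08). Of 16 suberin genes 15 fell, at a median of -1.64. CYP86A1, a fatty acid hydroxylase, had 143 and 139.8 FPKM in mock and 26.7 and 24.6 FPKM under As(V) (-2.42 ± 0.14, adjusted p = 1.3e-07), and MYB41 was not called. Vascular and secondary wall genes fell in 10 of 14 cases at a median of -1.08. CESA4, a cellulose synthase of secondary walls, had 20.6 and 22.8 FPKM in mock and 7.93 and 6.85 FPKM under As(V) (-1.43 ± 0.08, adjusted p = 1.1e-07), whereas APL and SUC2 of the phloem were not called (-0.03 ± 0.08 and -0.27 ± 0.12). Primary wall cellulose genes fell in 6 of 7 cases, at a median of -0.89, and CTL1, a chitinase-like protein needed for cellulose, had 599.8 and 594 FPKM in mock and 184 and 205 FPKM under As(V) (-1.62 ± 0.06, adjusted p = 8.5e-09).

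Families of cell wall enzymes and proteins had more genes lower than higher. Xyloglucan endotransglucosylases fell in 20 of 24 genes and rose in 2, at a median of -1.78. XTH17 had 82.2 and 87.3 FPKM in mock and 2.44 and 4.47 FPKM under As(V) (-4.34 ± 0.26, adjusted p = 1.3e-07). XTH11 rose from 0.906 and 0.345 to 7.72 and 7.26 FPKM (2.4 ± 0.13), a description since it reached 1 FPKM only under As(V). Expansins, which loosen walls without cutting them, had 11 lower and 4 higher (6 with library totals) of 17 and a median of -1.0. EXPB3 had 121 and 105 FPKM in mock and 12.2 and 16.7 FPKM under As(V) (-2.91 ± 0.14, adjusted p = 3.5e-08), and EXPA8 rose from 0.699 and 1.32 to 7.44 and 7.99 FPKM (2.13 ± 0.21, adjusted p = 4.4e-06). Class III peroxidases, which act on phenolics in the wall, fell in 46 of 55 genes and rose in 4, at a median of -1.58. The peroxidase AT5G15180 had 89.6 and 82.0 FPKM in mock and 0.9 and 1.34 FPKM under As(V) (-5.38 ± 0.20, adjusted p = 8.5e-09). AT2G38390 had 543 and 455 FPKM in mock and 35.5 and 42.4 FPKM under As(V) (-3.65 ± 0.12, adjusted p = 3.5e-09). Of 14 phenylpropanoid and monolignol genes 9 fell and 1 rose (2 with library totals), at a median of -0.54. AT4G36220, ferulic acid 5-hydroxylase 1, had 20.5 and 20.8 FPKM in mock and 2.15 and 2.39 FPKM under As(V) (-2.73 ± 0.22, adjusted p = 1.2e-06).

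The naming rule's 10 lowest genes held 5 of the lipid-transfer protein superfamily, small secreted proteins with a lipid-binding fold. AT4G12545 had 352 and 340.0 FPKM in mock and 7.09 and 9.09 FPKM under As(V) (-5.28 ± 0.33, adjusted p = 3.2e-07). AT4G12510 had 40 and 37.5 FPKM in mock and stood at 0 in each As(V) library. AT4G12520 had 58.7 and 54.3 FPKM in mock and 0.368 and 0 FPKM under As(V); 51.8% and 58.1% of their 50-base windows occur elsewhere, so reads between these neighbouring copies are uncertain. AT5G46900 and AT5G46890 had 51.4 and 54.3 FPKM in mock and 0.236 and 0 FPKM under As(V), and 52.0 and 43.0 FPKM in mock and 0.705 and 0.523 FPKM under As(V), with 22.5% and 26.8% of windows elsewhere. The other lowest genes were AT5G14650, the peroxidase AT5G15180, the CAP protein AT2G19970, GASA5 and the dirigent-like AT4G11210. AT5G14650, a pectin lyase-like protein, had 118 and 79.7 FPKM in mock and 0.305 and 1.24 FPKM under As(V) (-5.88 ± 0.79, adjusted p = 0.00011). AT2G19970 had 123 and 91.9 FPKM in mock and 2.27 and 1.47 FPKM under As(V) (-5.22 ± 0.49, adjusted p = 4.1e-06). GASA5 had 138 and 111 FPKM in mock and 3.103 and 2.67 FPKM under As(V) (-5.0 ± 0.30, adjusted p = 1.2e-07). AT4G11210 had 38.1 and 26.51 FPKM in mock and 0.168 and 0 FPKM under As(V) (-4.92 ± 0.85). AT4G11210 reached 1 FPKM only in mock, so these values are a description. The naming rule takes only genes whose As(V) and mock libraries do not overlap, so this held for these genes by choice. It held in 82.7% of all tested genes. In 3 lists added after these values were seen, 36 of 49 lipid-transfer genes fell and 6 rose (median -1.43), 11 of 11 CAP genes, secreted cysteine-rich proteins, fell (median -2.32), and 6 of 6 genes of the thalianol and marneral triterpene clusters fell (median -3.20). CYP708A2, thalianol hydroxylase, had 60.9 and 45.2 FPKM in mock and 1.56 and 1.98 FPKM under As(V) (-4.29 ± 0.30, adjusted p = 5.4e-07), and the thalianol synthase THAS1 33.3 and 19.6 FPKM in mock and 1.08 and 1.65 FPKM under As(V) (-3.52 ± 0.28, adjusted p = 2.5e-06).

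Genes of mitosis and of DNA replication moved in opposite directions. All 14 genes of the mitotic cell cycle list fell (13 with library totals), at a median of -1.17. CYCD3;1, counted in this list although a cyclin of division onset, had 27.7 and 22.6 FPKM in mock and 4.404 and 5.597 FPKM under As(V) (-2.14 ± 0.14, adjusted p = 2.6e-07). CYCB1;2, a mitotic cyclin, had 16.6 and 12.6 FPKM in mock and 4.74 and 4.38 FPKM under As(V) (-1.47 ± 0.15, adjusted p = 7.2e-06). KN, the syntaxin of the new cell plate, had 48.5 and 33.3 FPKM in mock and 12.2 and 12.5 FPKM under As(V) (-1.63 ± 0.19, adjusted p = 2.2e-05), with 33.5% of its exon bases under an antisense gene. Of 10 replication genes 7 rose and 0 fell, at a median of 0.49. That median was smaller, 0.34, without the second mock library and 0.65 without the first. MCM2, a subunit of the replicative helicase, had 10.5 and 8.34 FPKM in mock and 14.9 and 14.8 FPKM under As(V) (0.61 ± 0.08, adjusted p = 7.5e-05). RNR1, ribonucleotide reductase, had 22.6 and 20.04 FPKM in mock and 36.8 and 33.8 FPKM under As(V) (0.70 ± 0.07, adjusted p = 3.4e-06). The mock pair itself differed here, the second library being lower by 0.35 in the median of the mitotic genes and by 0.29 in that of the replication genes. Of 9 genes of the DNA damage response 6 rose and 1 fell (0 with an equal FPKM sum), at a median of 0.64. SMR4, an inhibitor of cyclin-dependent kinases, had 2.404 and 3.36 FPKM in mock and 10.97 and 7.397 FPKM under As(V) (1.41 ± 0.29, adjusted p = 0.0013). Meristem and cap genes had 4 lower (2 with library totals or without the first mock library) and 0 higher of 8 and a median of -0.34; PLT1 and PLT2, factors of the stem cell niche, were not called (-0.00 ± 0.14 and 0.05 ± 0.17), and UPB1 had 48.7 and 61.6 FPKM in mock and 18.3 and 19.5 FPKM under As(V) (-1.49 ± 0.23, adjusted p = 0.00021). Of 182 ribosomal protein genes 64 rose and 20 fell, at a median of 0.11; the split was 90 and 15 with library totals, 37 and 27 without the second mock library and 77 and 12 without the first.

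The hypoxia and camalexin genes rested on which mock library was used. ADH1, alcohol dehydrogenase, had 115 and 608 FPKM in mock and 475 and 552 FPKM under As(V), and CYP71A12, an enzyme of indole defence compounds, 13.8 and 76.7 FPKM in mock and 30.2 and 34.2 FPKM under As(V). In both genes the As(V) libraries lay between the mock libraries, and neither was called (0.95 ± 0.64 and -0.03 ± 0.62). Of 11 hypoxia genes 2 rose and 3 fell, at a median of -0.57; it was 5 and 3 (median 0.16) without the second mock library and 1 and 7 (median -1.12) without the first. The second mock library was higher than the first by 1.12 in the median of this list and by 0.54 in that of the camalexin list. Of 15 camalexin and indole glucosinolate genes 0 rose and 7 fell, at a median of -0.76; it was 2 and 7 (median -0.42) without the second and 0 and 14 (median -1.23) without the first. CYP79B3, which makes the shared precursor indole-3-acetaldoxime, had 27.8 and 37.0 FPKM in mock and 4.87 and 4.33 FPKM under As(V) (-2.56 ± 0.21, adjusted p = 1.4e-06). LBD41, a hypoxia-induced factor, had 167 and 261 FPKM in mock and 45.2 and 46.0 FPKM under As(V) (-2.17 ± 0.23, adjusted p = 2.5e-05), both lower than either mock library. A lack of overlap held in 82.7% of all tested genes.

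**Figure D4:**
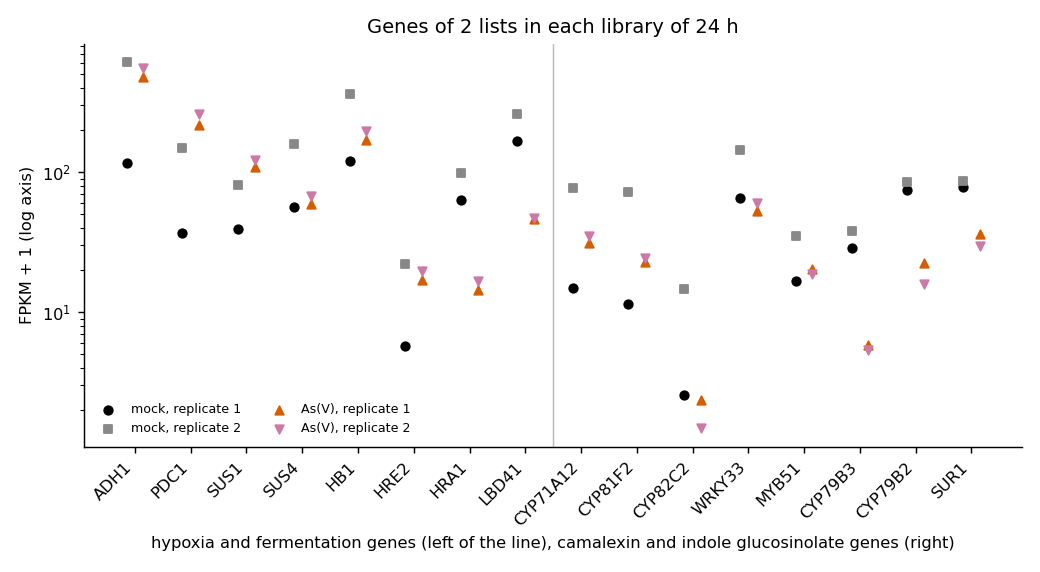
Level in each 24 h library (y axis, FPKM + 1, log scale) of 8 hypoxia genes and 8 genes of camalexin and indole metabolism. The second mock library is above the first in these genes, as in ADH1 with 115 and 608 FPKM, while the 2 As(V) libraries lie close together.

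The effect at 24 h differed from that at the earlier times in most genes. A contrast of the As(V) effects, each against the mock of its own time, called 12311 genes (62.2%) between 24 h and 6 h, 5316 higher (26.9%) and 6995 lower (35.4%), and 11920 (60.2%) between 24 h and 1.5 h, 5523 higher (27.9%) and 6397 lower (32.3%). The direction of these differences depends on the scale, since the scaling sizes estimated from the deposited FPKM of the 6 h As(V) libraries are 0.435 and 0.449 of their estimated reads in genes. The effect itself was called in 73.4% of genes at 6 h (35.8% higher, 37.6% lower) and in 63.9% at 1.5 h (30.1% higher, 33.8% lower). Changes at 1.5 h and 6 h are as deposited unless library totals are named, and each count or value of a difference between times has its value with library totals beside it. With library totals 12354 genes were higher and 2637 lower between 24 h and 6 h, and 10366 and 3310 between 24 h and 1.5 h. On that scale the median difference over all genes was 0.95 between 24 h and 6 h and 0.58 between 24 h and 1.5 h.

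Flavonoid genes had the opposite direction at 24 h from before. Of 10, 6 rose and 1 fell at 24 h, at a median of 0.50, while all 10 fell at 6 h and at 1.5 h, with medians of -2.93 and -3.94 (-3.89 and -4.54 with library totals). The effect was higher at 24 h in 10 of them against 6 h and 10 against 1.5 h, and in 10 and 10 with library totals. CHI, chalcone isomerase, had changes of -4.57, -3.12 and 1.05 at 1.5, 6 and 24 h, and 126 and 111 FPKM in mock and 250.4 and 241 FPKM under As(V) at 24 h. Its effect at 24 h was higher than at 6 h by 4.16 ± 0.29, adjusted p = 5.5e-07 (library totals 5.40), and than at 1.5 h by 5.62 ± 0.30, adjusted p = 1.7e-07 (library totals 6.30). CHS, chalcone synthase, the entry enzyme, was not called at 24 h (-0.07 ± 0.20, adjusted p = 0.77). Replication genes were higher at 24 h than at 6 h in 8 of 10 and lower in 1 (10 and 0 with library totals). Root hair growth genes were higher in 13 of 26 and lower in 8 against 6 h, or 23 and 1 with library totals, with medians of -2.28 at 6 h and -1.44 at 24 h (-3.29 and -1.34 with library totals). Over all 19694 genes tested with library totals, 12354 were higher and 2637 lower against 6 h, with a median difference of 0.95. On that scale the median difference was 2.58 in replication genes and 1.54 in root hair growth genes.

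The effect on xenobiotic and sulfur deficiency genes was lower at 24 h than at 6 h in most members on both scales. Xenobiotic genes had medians of 4.85, 6.26 and 2.77 at 1.5, 6 and 24 h (4.22, 5.07 and 2.88 with library totals). The effect was lower at 24 h than at 6 h in 12 of 13 (10 with library totals), and than at 1.5 h in 8 (6). Sulfur deficiency genes had medians of 4.32, 5.09 and 1.8 (3.70, 3.92 and 1.92 with library totals), and the effect was lower than at 6 h in 8 of 9 (7 with library totals) and than at 1.5 h in 8 (7). Small heat shock proteins had medians of 8.92, 9.15 and 7.63 (8.30, 7.96 and 7.74 with library totals). In most of them the difference was not called: the effect was lower at 24 h than at 6 h in 6 of 13 (2 with library totals) and than at 1.5 h in 4 (4). Proteasome genes had medians of 0.44, 1.00 and 0.95 (-0.17, -0.19 and 1.06 with library totals). Against 1.5 h the effect on them was higher in 24 of 38 and lower in 3, or 37 and 0 with library totals. Against 6 h it was higher in 13 and lower in 13, or 34 and 2 with library totals. Over all 19694 genes tested with library totals, 10366 were higher against 1.5 h and 12354 against 6 h. The median difference on that scale was 0.58 and 0.95 over all genes, and 1.24 and 1.27 in proteasome genes.

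Lipid remodelling genes were above mock at 1.5 h, where 7 of 10 rose and 0 fell, and mostly below it at 24 h. Their medians were 1.37, -0.31 and -2.07 at 1.5, 6 and 24 h (0.76, -1.40 and -1.96 with library totals). All 10 had a lower effect at 24 h than at 6 h as deposited, but 7 were lower and 1 higher with library totals, while all 10 were lower than at 1.5 h on both scales. The mock level itself moved between times in MGD3, with 13.6 and 14.99 FPKM at 1.5 h, 23.9 and 32.0 FPKM at 6 h and 170.0 and 163 FPKM at 24 h. Under As(V) MGD3 had 39.8 and 46.7, 14.6 and 25.9 and 19.9 and 14.5 FPKM at the same times. Its effect at 24 h minus that at 1.5 h was -4.74 ± 0.29, adjusted p = 5.2e-07 (library totals -4.02).

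In IRT1 and FRO2 the mock levels moved between times and entered these differences. IRT1 had 1.37 and 0.777 FPKM in the mock libraries of 6 h and 5.42 and 8.58 FPKM under As(V), against 84.4 and 90.5 and 5.22 and 5.64 FPKM at 24 h. The As(V) levels were thus close at the 2 times and the mock levels far apart, and the difference of effects was -5.74 ± 0.70, adjusted p = 5.2e-05 (library totals -4.66). FRO2 had the same pattern, with 1.24 and 1.05 and 2.25 and 4.90 FPKM at 6 h, and a difference of -5.34 ± 0.68, adjusted p = 6.6e-05 (library totals -4.45). GL2 had effects of -1.36, -1.39 and -0.73 at 1.5, 6 and 24 h, and the effect at 24 h was higher than at 6 h by 0.66 ± 0.17, adjusted p = 0.0065 (library totals 1.55). PCS1 went from 3.48 and 1.3 to -1.19, a difference of -2.49 ± 0.18, adjusted p = 5.6e-07 from 6 h (library totals -1.19). For HAC1 the difference from 6 h was -1.59 ± 0.09, adjusted p = 5.3e-08 (library totals -0.27). For ANL2 it was -0.87 ± 0.12, adjusted p = 6.1e-05, but 0.38 with library totals, so its direction depends on the scale. ASK18 had effects of 4.54, 5.27 and 1.19, and a difference from 6 h of -4.08 ± 0.16, adjusted p = 5.2e-09 (library totals -2.77). The mock means of ASK18 were 11.6, 10.3 and 9.81 FPKM at 1.5, 6 and 24 h, and its As(V) means 291.5, 435.9 and 23.8 FPKM.

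**Figure D5:**
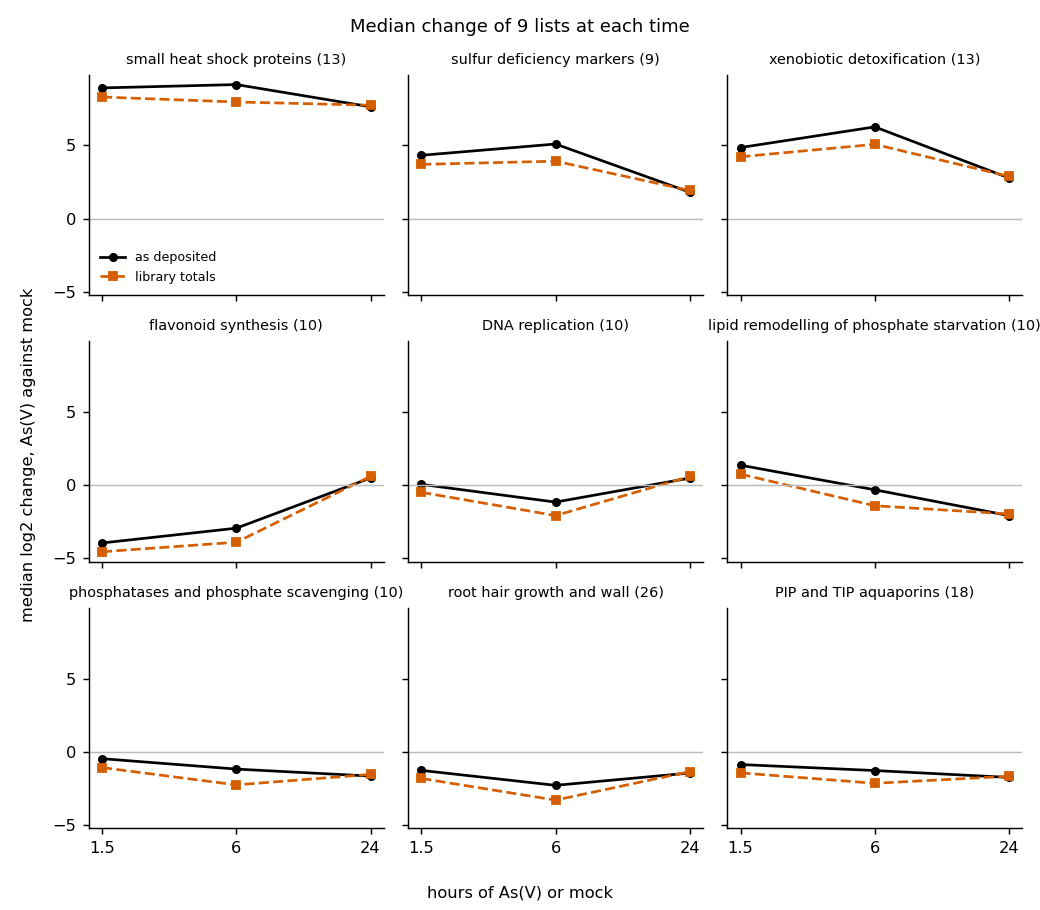
Median change of As(V) against mock (y axis, log2 of FPKM + 1) of 9 gene lists at 1.5, 6 and 24 h (x axis), as deposited (solid) and with library totals (dashed). Flavonoid genes go from -3.94 to 0.50 and small heat shock proteins from 8.92 to 7.63 between 1.5 and 24 h; the scales differ most at 6 h.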

How the data were processed

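Poly(A) RNA of roots was sequenced with stranded libraries as single-end reads of 50 bases, per the labels' protocols. The authors deposited FPKM per gene for 12 libraries, in 6 groups of 2. The submitters' processing notes name the build TAIR10 and the tools edgeR, HTSeq 0.6.0, STAR 2.5.4 and Trim Galore without their roles; how the scaling sizes were set, and whether counting used the strand, are not given in the sources used here. The files per library and the series table hold the same values. Since the FPKM of a gene step by whole reads, reads were estimated for 32937 genes from the smallest step that makes its values whole within 0.05 reads, which was recovered for 63.4% of 22373 genes with at least 6 values above 0; the other genes took a step from their exon length. The estimated reads served for precision weights, the read minimum and library totals, and the FPKM were tested. Per library they summed to 12.92 to 16.16 M; counting precision is thus limited for genes near 1 FPKM, and no p-value covers more than 2 libraries per group.

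Genes that reached 1 FPKM and 10 estimated reads in 2 or more of the 12 libraries were tested with limma 3.58.1 (R 4.3.3) on log2(FPKM + 1), with 1 mean per group, voom weights and robust moderated variances (6 residual degrees of freedom, median prior 4.78). Benjamini-Hochberg adjustment ran over the 19787 genes of each contrast. The As(V) effect at 24 h, and its differences from 6 h and 1.5 h, were contrasts of this fit, which was tested on simulated data. Tables were made with Python 3.11.15, pandas 2.3.3, numpy 2.4.6 and matplotlib 3.10.9. Of the described genes, 394 were below the read minimum and were not tested. Alternatives were other pseudocounts (0.1 and 5 FPKM), filters, weights, scalings, a fit of the 4 libraries of 24 h, a replicate block and leaving out each library.

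The comparison, the 47 hand-written lists and the 11 families taken from gene symbols or descriptions were chosen with earlier results of these data known. The rule named the 10 highest and 10 lowest called genes with a mean of at least 5 FPKM and no overlap between groups, up to 3 genes per list with at least 3 calls, the 5 highest and 5 lowest differences per time pair, and 10 fixed genes, in all 206. Other genes in the text were chosen after their values were seen. Of 584 listed genes, RefSeq's annotation of TAIR10.1 paired 552 with the name used, and the other 32 appear by locus; coordinates are from that annotation. Of 1068 genes checked, 14 had over 20% of their 50-base windows elsewhere in the genome; of the 206, 5 did, and 9 had over 20% of exon bases under an antisense gene.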

Additional observations from a re-analysis of the deposited data

Results flagged for a closer look

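The effect of arsenate differed between times in 12311 genes for 24 h against 6 h and in 11920 genes for 24 h against 1.5 h, by the limma contrast of the effects; the genes below had the 5 highest and 5 lowest differences in each, given on the log2(FPKM + 1) scale with SE and with the value from library totals, and n is 2 libraries per group.

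Against 6 h the effect was lower in AT5G64401 by -7.85 ± 0.99 (library totals -6.55), a gene of unknown function that lies wholly under an antisense gene and had 5.15 and 0 FPKM in mock and 3868 and 2918 FPKM under As(V) at 6 h and 34.1 and 20.4 FPKM in mock and 164 and 163 FPKM under As(V) at 24 h. In AT5G65609, also of unknown function and with 21.6% of its exon bases shared with a neighbour, it was -7.00 ± 1.25 (library totals -5.75) against 6 h and -6.84 ± 1.29 (library totals -6.17) against 1.5 h; its call at 24 h is lost with a pseudocount of 5 FPKM. The CAP protein AT4G33720 differed by -5.89 ± 0.41 (library totals -4.58), with 114 and 217 FPKM in mock and 411 and 316 FPKM under As(V) at 6 h and 1752 and 1387 FPKM in mock and 55.2 and 62.7 FPKM under As(V) at 24 h. IRT1 differed by -5.74 ± 0.70 (library totals -4.66), with mock levels that were themselves far higher at 24 h. SUFE2, an activator of cysteine desulfurases, differed by -5.57 ± 0.17 (library totals -4.26), with 18.1 and 24.0 FPKM in mock and 400.3 and 341 FPKM under As(V) at 6 h and 79.0 and 83.9 FPKM in mock and 27.3 and 29.4 FPKM under As(V) at 24 h. The effect was higher at 24 h in the peroxidase AT2G41480 by 5.65 ± 0.92 (library totals 5.77), in the lipid-transfer gene AT1G48750 by 5.50 ± 0.62 (library totals 5.64) and in AT1G68238 by 4.39 ± 0.52 (library totals 4.52); all 3 were listed at 0 in both As(V) libraries of 6 h, so these fitted values are no bounds, and AT1G48750 lies wholly under an antisense gene. AT3G56290, annotated as a potassium transporter, differed by 4.93 ± 0.69 (library totals 5.32) from 6 h and 6.06 ± 0.49 (library totals 6.46) from 1.5 h, and the dehydrin AT4G38410 by 4.49 ± 0.37 (library totals 5.45) from 6 h.

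Against 1.5 h the effect was lower in the O-methyltransferase IGMT4 by -7.62 ± 1.35 (library totals -6.89), with 11.2 and 54.3 FPKM in mock and 5.17 and 4.89 FPKM under As(V) at 24 h and a call at 24 h that several alternatives lose, in AT1G65484 by -7.40 ± 0.85 (library totals -6.79), in the ubiquitin ligase CNI1 by -7.05 ± 0.60 (library totals -6.33) and in the lipase DLAH by -6.53 ± 0.53 (library totals -5.84). It was higher in WOX11, a homeobox factor of root founder cells, by 5.79 ± 0.43 (library totals 6.19), with 14.3 and 21.3 FPKM in mock and 2.42 and 0.696 FPKM under As(V) at 1.5 h and 4.57 and 5.45 FPKM in mock and 42.1 and 41.9 FPKM under As(V) at 24 h. It was higher in the glycosyltransferase AT2G22590 by 6.55 ± 0.58 (library totals 6.91) and in the thiolase KAT5 by 5.74 ± 0.28 (library totals 6.37). In AT2G47844 the fitted difference was 8.18 ± 1.78 (library totals 8.23); the gene was listed at 0 in both mock libraries of 24 h and both As(V) libraries of 1.5 h, so this value is no bound. Groups of 2 libraries allow no search for single outlying samples.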

How the results depend on the processing

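The count of genes called at 24 h stayed within 1.5 times of 13019 in the alternatives run: from 11503 with at least 5 FPKM in 2 libraries to 13450 with an equal FPKM sum, and from 11306 to 11830 when a 24 h library was left out, where the lone library of a group is assumed to vary like the others. For the differences from 6 h and 1.5 h these ranges without a library were 10788 to 12028 and 10612 to 11450. Of the calls at 24 h, 44.7% were higher as deposited, 52.4% with library totals, 51.6% with median-of-ratios scaling and 56.1% with an equal FPKM sum. The direction of the time differences moved most. With library totals, 12354 genes were higher and 2637 lower at 24 h than at 6 h, with an equal FPKM sum 12259 and 2809, against 5316 and 6995 as deposited. Against 1.5 h they were 10366 and 3310 with library totals and 10758 and 3200 with an equal FPKM sum, against 5523 and 6397. These alternatives change the scaling and, through the FPKM minimum, the genes tested (19694 with library totals, 19981 with an equal FPKM sum, against 19787); which scale is nearer to RNA per cell was not tested. Deviations of same-numbered libraries from their group means had r of -0.06 to 0.12, the highest being between mock and As(V) at 24 h. These values are a description, and whether a replicate number marks a shared culture was not tested. With the replicate block 13105, 12392 and 11962 genes were called. Of 206 named genes, all kept direction and call with that block, and at most 8 lost the call under any other alternative, among them CPC, SHR, SMR7, KIN1, LHCB1.3, PDC1, WRKY6 and IGMT4. GSH1 reversed to 0.02 with an equal FPKM sum. Counts per list were recomputed without each 24 h mock library and under 3 scalings, an alternative chosen after seeing the data: of 116 counts, 11 moved by over 1.5 times without the first mock library, 5 without the second, 7 with library totals and 11 with an equal FPKM sum. With 2 libraries per group, small changes of genes near 1 FPKM could not be called.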

Other observations

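The hormone and defence lists did not all share a direction at 24 h. The counts below stand beside 30.3% called higher and 37.4% called lower over all described genes. Of 14 ethylene genes 6 rose and 4 fell, at a median of 0.07. ACS7, which makes the ethylene precursor, had 1.19 and 1.67 FPKM in mock and 7.49 and 10.2 FPKM under As(V) (2.00 ± 0.25, adjusted p = 3.8e-05). ERF1, a response factor, had 9.24 and 10.3 FPKM in mock and 0.466 and 0.48 FPKM under As(V) (-2.87 ± 0.44). ERF1 reached 1 FPKM only in mock, so these values are a description. Of 10 jasmonate genes 6 fell and 0 rose, at a median of -0.83, and VSP1, a response gene, had 16.4 and 13.3 FPKM in mock and 1.08 and 0.334 FPKM under As(V) (-3.22 ± 0.47, adjusted p = 0.00012). Of 5 salicylate genes 4 fell, at a median of -0.63. Abscisic acid genes had 3 higher and 1 lower of 7 and a median of -0.08 that turned to 0.03 with library totals; ABI1, a phosphatase of the receptor pathway, had 70.2 and 76.9 FPKM in mock and 141 and 149 FPKM under As(V) (0.97 ± 0.07, adjusted p = 2.9e-07). Auxin transport genes had 2 higher (5 with library totals) and 4 lower of 11; LAX3, an influx carrier, had 61.8 and 56.9 FPKM in mock and 20.3 and 17.5 FPKM under As(V) (-1.60 ± 0.08, adjusted p = 4.9e-08). WRKY factors had 13 higher and 26 lower of 57, a median of -0.22, and 19 and 24 with library totals. The median was -0.33 without the first mock library and -0.15 without the second. WRKY38 and WRKY62, related factors of salicylate defence, were the lowest. WRKY38 had 24.5 and 24.8 FPKM in mock and 0.362 and 0.269 FPKM under As(V) (-4.28 ± 0.33). WRKY62 had 22.9 and 15.98 FPKM in mock and 0.152 and 0.188 FPKM under As(V) (-4.11 ± 0.60). Both reached 1 FPKM only in mock, so these values are descriptions.

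Clock genes rose in 8 of 13 cases and fell in 2, at a median of 0.48, between libraries that the labels give the same time point. RVE1, a morning factor, had 2.197 and 2.501 FPKM in mock and 7.48 and 11.96 FPKM under As(V) (1.62 ± 0.29, adjusted p = 0.00048), and PRR5, of the day, 11.97 and 12.6 FPKM in mock and 20.9 and 25.3 FPKM under As(V) (0.85 ± 0.10, adjusted p = 1.7e-05), while ELF4, of the evening, had 391 and 386 FPKM in mock and 262 and 254 FPKM under As(V) (-0.59 ± 0.07, adjusted p = 1.7e-05). Autophagy genes had 10 higher and 4 lower (2 with library totals) of 18 and a median of 0.36. ATG8B, which coats the autophagosome, had 15.2 and 18.5 FPKM in mock and 58.4 and 59.1 FPKM under As(V) (1.75 ± 0.15, adjusted p = 1.9e-06), and ATG8F, of the same family, 187 and 193 FPKM in mock and 90.7 and 100.3 FPKM under As(V) (-0.99 ± 0.07, adjusted p = 4.6e-07), so that members of the family differed in direction.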
